A study of Homo sapiens with 6 samples.

Results

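Described here are long noncoding RNA genes whose counts were absent or far fewer in DMSO-treated AC16 cells than after doxorubicin. They were taken from a table of counts per gene by their own values: GENCODE type lincRNA or antisense, a sum of at least 60 counts over the 3 doxorubicin libraries, and a sum over the 3 DMSO libraries of at most 1 count per 10 doxorubicin counts. Of 58299 genes in the table, 12885 had those types, and 39 met both thresholds once 8 well-known long noncoding RNAs were set aside (H19, MEG3, PURPL, MIR34AHG, LINC-PINT, NEAT1, MALAT1 and PVT1). Of those set aside, PURPL alone met the type and count thresholds, with 175 doxorubicin counts and 0 DMSO counts. Since doxorubicin and DMSO counts chose the 39 genes, their own change is a description and carries no test.

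AC16 cells received 100 nM doxorubicin for 48 h (n = 3 libraries) or the vehicle, 0.1% DMSO, for 48 h (n = 3 libraries). AC16 is a proliferating human line made by fusing ventricular heart cells with a fibroblast line, and doxorubicin is an anthracycline drug that traps topoisomerase II on DNA and leaves breaks. Poly(A) RNA was sequenced without strand information. Nothing in the labels states that replicates were independent cultures, and each p-value therefore reflects library-to-library spread alone, which may be technical.

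Column totals were 17252862 to 18665979 counts in doxorubicin libraries and 17929419 to 19571731 in DMSO libraries. Defining markers of cardiomyocytes were nearly absent: 0 of 8 passed the expression filter, and they summed to 0.897 to 1.70 CPM in doxorubicin libraries and 0 to 0.221 CPM in DMSO libraries. CPM is a library's count scaled to a common size with edgeR's TMM factors. The 6 fibroblast markers all passed the filter and summed to 3892 to 6020 CPM in doxorubicin libraries and 12663 to 14659 CPM in DMSO libraries. In any library, markers of endothelial cells (2 of 3 passed the filter) summed to at most 2.64 CPM. Those of leukocytes (1 of 3 passed) summed to at most 2.57 CPM. Keratinocyte markers (2 of 4 passed) summed to 47.5 to 54.4 CPM in doxorubicin libraries and 40.8 to 48.6 CPM in DMSO libraries. Their part in the values below was not tested. In bulk RNA, more cells that carry a transcript and more transcript per cell cannot be told apart.

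Long noncoding RNAs are transcripts without a long open reading frame, and most are made at low levels and in few cell types. Many start from a promoter shared with a coding gene on the opposite strand, overlap a coding gene as an antisense transcript, or lie alone between genes. DNA breaks activate p53, a transcription factor that binds a pair of decamers in DNA, and several long noncoding RNAs are known p53 targets.

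The rule picked a small share of the long noncoding genes, and the reverse pattern was rarer. Among lincRNA and antisense genes with at least 60 doxorubicin counts, 40 of 765 (5.23%, PURPL included) had a DMSO sum of at most 1 per 10, against 306 of 12277 protein-coding genes (2.49%). With the groups exchanged, 1 of 648 such long noncoding genes (0.154%) and 3 of 11824 coding genes (0.0254%) met the same limits. The 39 members, 23 lincRNA and 16 antisense, lay on 18 chromosomes, with 5 on chromosome 6 and 4 each on chromosomes 1 and 20. Their GENCODE names were clone-based in 20 cases. Summed exon lengths ran from 331 to 13289 bases with a median of 1646, against 2002 for 1139 other lincRNA and antisense genes with 60 or more counts. Only 5 members had a single exon block, and the median was 5 blocks, against 3 in those other genes.

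Levels were low and spread over a wide range. The doxorubicin sum had a median of 109 counts and a range of 60 to 1724, while the DMSO sum had a median of 3 and a range of 0 to 155. Together the members held 8568 counts in doxorubicin and 337 in DMSO, and LINC02407 and GAS6-AS1 made up 31.0% of the doxorubicin counts. Summed over members, the level was 172, 155 and 146 CPM in doxorubicin replicates 1 to 3, against 5.48, 6.72 and 6.08 CPM in DMSO replicates 1 to 3. The DMSO sum was 0 in 6 members, 1 to 3 in 15 and above 3 in 18, and a sum of 0 allows up to 0.0543 CPM (3 counts over the group). In 39 of 39 members every doxorubicin library lay above every DMSO library, which the rule nearly fixes, and 34.8% of all tested genes showed that order. All 39 passed the expression filter, as the doxorubicin group alone can carry a gene through it.

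**Figure D1:**
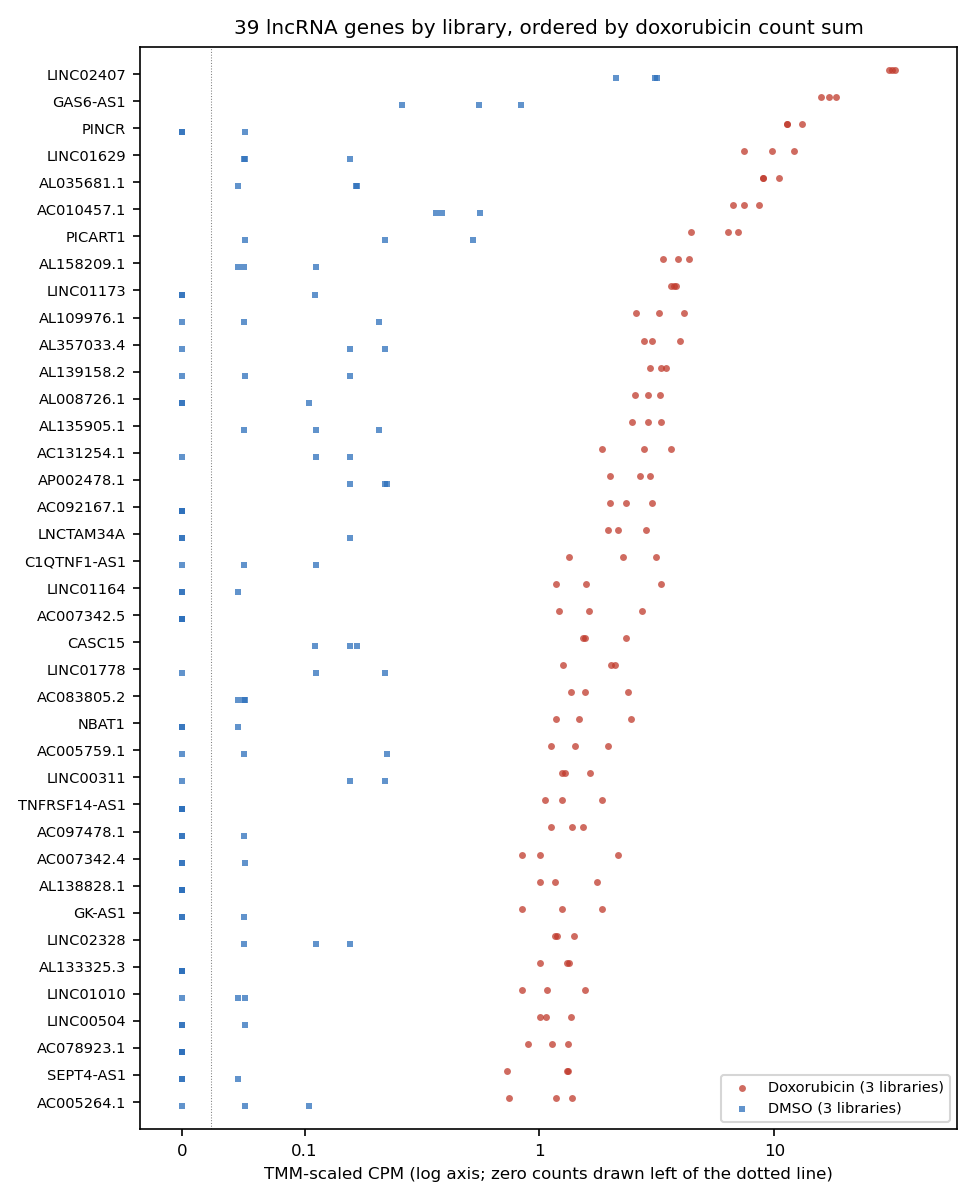
Level of each of the 39 genes in every library, in TMM-scaled CPM on a log axis, with red circles for 3 doxorubicin libraries and blue squares for 3 DMSO libraries. Zero counts are drawn left of the dotted line. The red and blue points of a gene never overlap, and LINC02407 has the highest DMSO level, with 155 counts in all.

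Members differed in how even they were over the doxorubicin libraries. The coefficient of variation over the 3 doxorubicin libraries ran from 2.26% for LINC01173 to 55.8% for LINC01164, with a median of 21.2%. The highest library stayed under 2 times the lowest in 33 of 39 members. Doxorubicin replicate 1 was the highest library for 23 members (59.0%), replicate 2 for 10 and replicate 3 for 6. Among the 2202 tested genes at a log2 fold change of at least 1, replicate 1 was highest in 57.3%, a share near that of the members.

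Genes with similar values lay on either side of both thresholds. Just inside the count minimum were AC005264.1 (60 doxorubicin and 3 DMSO counts), AC078923.1 (61 and 0) and SEPT4-AS1 (61 and 1). Just outside it were SMILR (59 and 4), AC139749.1 (55 and 3) and AL121894.2 (53 and 4). On the ratio of sums, LINC00311 (76 doxorubicin and 7 DMSO counts, 10.9), LINC02407 (11.1) and LINC02328 (11.3) were just inside. GDNF-AS1 (254 and 28 counts, 9.07), TNFRSF10A-AS1 (189 and 21) and AC013451.2 (186 and 21, 8.86) were just outside.

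Members already tied to p53 in the literature included PINCR, LNCTAM34A and PICART1. PINCR, whose name stands for p53-induced noncoding RNA, lies on chrX:43176994-43226598 (GRCh38, plus strand). It had 199, 248 and 202 counts in doxorubicin replicates 1 to 3, against 1, 0 and 0 counts in DMSO replicates 1 to 3. Doxorubicin libraries were thus all near 12 CPM (11.9 ± 1.03, SD, n = 3) and only a single DMSO count was seen. The ratio was 658, with an exact 95% counting interval of 118 to 26043. Its nearest coding gene, PPP1R2C, is 398747 bases away and had 0 counts in all 6 libraries.

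LNCTAM34A (chr1:9182004-9196284, plus strand) is transcribed opposite to the host gene of miR-34a, a p53-induced microRNA. It had 50, 41 and 35 counts in doxorubicin libraries, against 0, 3 and 0 in DMSO libraries. The groups stood well apart, although the ratio of 42.6 has a counting interval of 14.3 to 209. Of its exon bases, 25.9% lie in exons of MIR34AHG on the opposite strand, which had 626 doxorubicin and 122 DMSO counts. Reads in those bases cannot be assigned to a strand. PICART1 (chr17:50050349-50055739, minus strand), the p53-inducible cancer-associated RNA transcript 1, had 123, 120 and 79 counts in doxorubicin libraries and 1, 10 and 4 in DMSO libraries. DMSO replicate 2 held most of its DMSO counts, and the ratio of the summed levels was 21.8.

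A list of 13 long noncoding RNAs tied to p53 or senescence, PINCR among them, showed no common direction. The list was not split by an expected direction, so its mixed result says nothing about p53-induced RNAs as a group. LNCTAM34A, PICART1 and the 8 genes set aside are not on it. TP53COR1 had no match in the table, and PANDAR and LINC-ROR had 0 counts. DINOL was below the filter, with 21 doxorubicin and 1 DMSO counts. Of the 9 tested, 3 were higher (PINCR, TP53TG1 and GAS5), 3 were lower (CDKN2B-AS1, SNHG1 and MIR17HG) and 3 were not called. PINCR was picked by these counts, so its call is no support. Of all tested lincRNA and antisense genes, 31.6% were called higher and 13.3% lower, and of all 15358 tested genes 32.7% and 32.0%. Without PINCR the median log2 fold change of the other 8 tested genes was -0.16, against 0.08 with it and -0.0013 for all tested genes. TP53TG1, another p53-induced transcript, had 480 doxorubicin counts and 74 DMSO counts in all. It was 6.56-fold higher in edgeR's quasi-likelihood test (log2 fold change 2.71 ± 0.18 SE, adjusted p = 2.1e-09).

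RefSeq promoter windows of 300 bases, from 250 before to 50 after a gene's start (GRCh38.p14), were found for 18 of the 39 members. In 15 of the 18 the RefSeq start lay within 1000 bases of the GENCODE start. The windows were searched for the p53 decamer (a half-site) on both strands, for TGANTCA, the element of AP-1 factors, on both strands, and for TATAAA on the sense strand. A decamer was in 4 of 18 windows (22.2%), against 6.54% of 27305 promoters and 7.08% of 3374 promoters of lincRNA and antisense genes. TGANTCA was also in 4 of 18 (22.2%), against 7.76% of all promoters and 10.8% of the long noncoding ones, and TATAAA was in 1 of 18, that of NBAT1, against 7.71%. With 18 windows these shares rest on few genes and were not tested. The median GC content was 54.2% and the median observed-to-expected CpG ratio 0.296, against 58.3% and 0.580 for all promoters and 53.2% and 0.365 for the long noncoding ones.

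All 5 windows with a p53 decamer or an AP-1 element are shown, on the strand of the gene, with those matches in capitals.
LNCTAM34A, chr1:9181954-9182253, plus strand: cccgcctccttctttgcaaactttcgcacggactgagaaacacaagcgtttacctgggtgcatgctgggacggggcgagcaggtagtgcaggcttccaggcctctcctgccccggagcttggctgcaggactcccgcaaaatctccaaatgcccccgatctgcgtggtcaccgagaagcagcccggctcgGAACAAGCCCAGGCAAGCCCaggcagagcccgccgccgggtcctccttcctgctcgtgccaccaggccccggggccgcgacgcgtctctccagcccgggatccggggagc
LINC01173, chr2:234682418-234682717, plus strand: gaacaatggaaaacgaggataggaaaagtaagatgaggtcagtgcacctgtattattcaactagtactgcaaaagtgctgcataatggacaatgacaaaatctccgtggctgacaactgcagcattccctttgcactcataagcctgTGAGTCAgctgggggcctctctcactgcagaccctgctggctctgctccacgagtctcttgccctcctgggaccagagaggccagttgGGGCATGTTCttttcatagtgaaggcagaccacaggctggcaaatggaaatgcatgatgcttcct
LINC01629, chr14:76959388-76959687, plus strand: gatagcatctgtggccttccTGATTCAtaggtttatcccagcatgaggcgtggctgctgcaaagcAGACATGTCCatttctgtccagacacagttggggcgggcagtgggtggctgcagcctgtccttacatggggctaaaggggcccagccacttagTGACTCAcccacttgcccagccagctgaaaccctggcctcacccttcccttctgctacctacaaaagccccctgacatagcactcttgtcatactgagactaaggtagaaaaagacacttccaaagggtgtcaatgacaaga
AC005264.1 (now GNA15-DT), chr19:3155126-3155425, minus strand: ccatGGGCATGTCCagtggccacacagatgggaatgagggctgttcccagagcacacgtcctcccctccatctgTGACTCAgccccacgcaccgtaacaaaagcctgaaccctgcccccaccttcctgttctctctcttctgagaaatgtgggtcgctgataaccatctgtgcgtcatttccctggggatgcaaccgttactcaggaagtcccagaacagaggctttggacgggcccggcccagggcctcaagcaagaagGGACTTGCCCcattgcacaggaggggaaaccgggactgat
LINC01010, chr6:134437466-134437765, plus strand: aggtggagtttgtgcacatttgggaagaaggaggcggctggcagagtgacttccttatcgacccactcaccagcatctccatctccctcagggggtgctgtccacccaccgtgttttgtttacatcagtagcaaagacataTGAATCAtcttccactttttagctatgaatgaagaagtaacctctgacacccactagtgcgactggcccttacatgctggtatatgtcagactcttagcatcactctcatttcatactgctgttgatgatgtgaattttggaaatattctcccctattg
LNCTAM34A was the 1 member whose window held a full p53 site, a pair of decamers with at most 13 bases between them, and there the pair is adjacent (GAACAAGCCC and AGGCAAGCCC in the line above). Only 8 of 27305 promoters (0.0293%) held a full site by these letters. LINC01173, LINC01629 and AC005264.1 each held both a decamer and an AP-1 element, LINC01629 with 2 AP-1 matches, and LINC01010 held an AP-1 element alone. A match in the letters does not show that a factor binds.

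LINC01629 and LINC01173 are intergenic genes whose windows are shown above. LINC01629 (chr14:76959638-76965802) had 213, 186 and 133 counts in doxorubicin libraries, against 1, 3 and 1 in DMSO libraries, a ratio of 108 (46.0 to 334). LINC01173 (chr2:234682668-234717764) had 67, 69 and 67 counts in doxorubicin libraries, against 0, 0 and 2 in DMSO libraries, a ratio of 103 (28.1 to 856). Doxorubicin counts of LINC01173 were nearly equal over libraries, while LINC01629 was lowest in replicate 3. LINC01010 (chr6:134437716-134504581) was weaker, with 19, 16 and 28 counts in doxorubicin libraries and 1, 1 and 0 in DMSO libraries.

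Next, each member was placed relative to coding genes. The classes were divergent (6 members; opposite strands with start sites at most 2000 bases apart), overlapping a coding gene on the opposite strand (14), overlapping on the same strand (1), at most 10000 bases downstream on the same strand (1), and other intergenic (17). Each member was given the first of these classes that held, so a divergent member can also overlap a coding gene. In all, 18 members overlapped their nearest coding gene, 22 were within 10000 bases of it and 29 within 100000 bases. The median distance was 229 bases and the longest was the 398747 bases of PINCR.

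**Figure D2:**
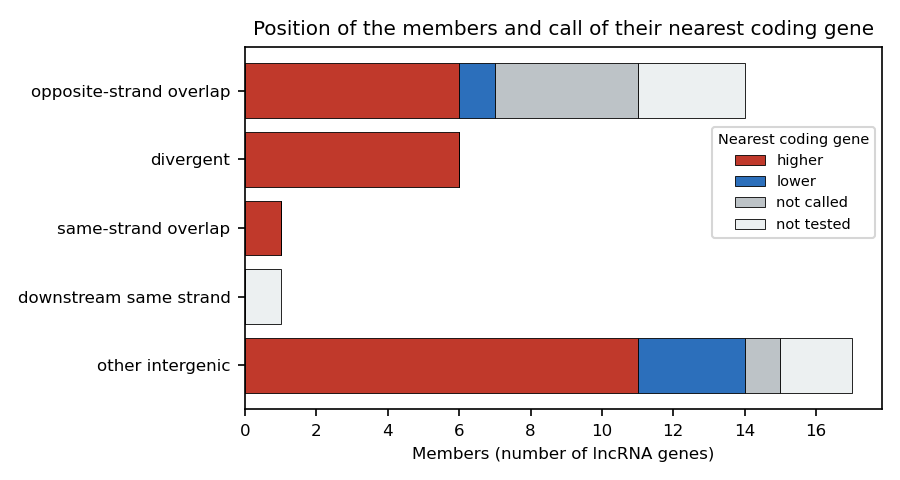
Number of members in each position class, split by whether the nearest coding gene was higher, lower, not called or not tested after doxorubicin. The nearest coding gene, by span, was higher for 6 of 6 divergent members (for AC005759.1 and SEPT4-AS1 it is the overlapped gene, not the divergent partner), 6 of 14 opposite-strand overlaps and 11 of 17 other intergenic members.

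Most nearest coding genes were themselves higher after doxorubicin. The 39 members had 38 distinct nearest coding genes, of which 33 passed the filter, and 24 of these (72.7%) were higher and 4 (12.1%) lower. A call needed an adjusted p below 0.05 in the quasi-likelihood test of edgeR. Among all 12963 tested coding genes 33.6% were higher and 35.3% lower, and among 942 nearest coding genes of the other long noncoding genes 31.5% were higher and 36.6% lower. At least 2-fold higher were 17 of the 33 (51.5%), against 13.7% of coding genes and 10.5% of the 942. The median log2 fold change was 1.01 over the 33, also with POU3F1 at its bound, -0.02 over coding genes and -0.05 over the 942. These genes were measured in the same libraries that chose the members, and the difference between the shares was not tested.

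Without strand, a read in exon bases shared by a member and a coding gene fits either, and the sources do not say whether such reads were counted for 1 gene, counted for both or dropped. Some exposed members had few DMSO counts beside well-covered hosts. AL008726.1 had 2 DMSO counts and CTSA 13980, AL035681.1 had 7 and L3MBTL2 3544, and AL135905.1 had 7 and PTP4A1 5562. SEPT4-AS1 and AC005759.1, with 80.1% and 55.7% of their exon bases shared, overlap genes that also had few DMSO counts. SEPT4 had 352 doxorubicin and 27 DMSO counts, and PDE4C had 1062 and 7. How shared bases affect the counts and ratios of these members was not tested. Exons of other genes covered part of the exon bases in 16 members, and more than 50% of them in 3. Among the 23 members that shared no exon base with any gene, 17 of 21 tested nearest coding genes (81.0%) were higher and 2 lower. Among the 16 that did share, it was 7 of 12 (58.3%) and 2. By distance, 10 of 15 tested genes were higher where spans overlapped, 8 of 10 at up to 100000 bases, and 6 of 8 beyond that.

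**Figure D3:**
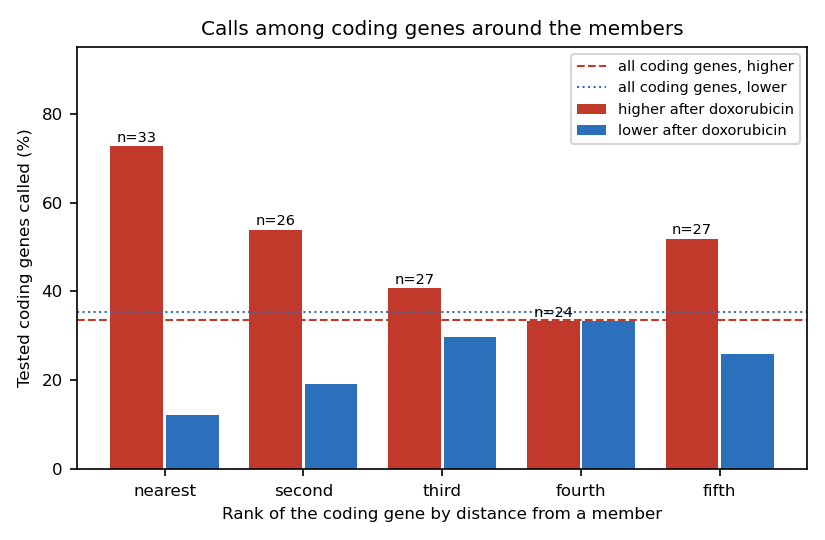
Percentage of tested coding genes called higher (red) or lower (blue) after doxorubicin among the nearest to the fifth nearest coding gene of a member, each gene counted once, with n the number tested. Dashed and dotted lines give the percentages over all coding genes (33.6% higher, 35.3% lower). The share called higher is 72.7% at the nearest gene, 33.3% at the fourth and 51.9% at the fifth.

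Further out the pattern was mixed. Among the second nearest coding genes 14 of 26 tested (53.8%) were higher, among the third 11 of 27 (40.7%), among the fourth 8 of 24 (33.3%) and among the fifth 14 of 27 (51.9%). The median log2 fold change at these ranks was 0.38, 0.20, -0.01 and 0.49. No steady fall with rank is seen in these values.

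Divergent pairs included coding genes with no or few DMSO counts. AL139158.2 (now MIR3659HG, host gene of a microRNA, chr1:38047314-38119025, plus strand) starts 520 bases from POU3F1, a POU-domain transcription factor gene on the minus strand. The member had 61, 56 and 59 counts in doxorubicin libraries, against 1, 3 and 0 in DMSO libraries, a ratio of 44.6 (17.1 to 166). POU3F1 had 235, 175 and 145 counts in doxorubicin libraries and 0 in each DMSO library, at least 188-fold higher against 3 counts over the DMSO group (adjusted p = 7.0e-09, edgeR). No exon base is shared between the 2 genes. The promoter window of the member, shown because it lies in the space between the 2 starts, has a GC content of 79.0% and an observed-to-expected CpG ratio of 0.834 and holds none of the 3 motifs.
AL139158.2 (MIR3659HG), chr1:38046884-38047183, plus strand: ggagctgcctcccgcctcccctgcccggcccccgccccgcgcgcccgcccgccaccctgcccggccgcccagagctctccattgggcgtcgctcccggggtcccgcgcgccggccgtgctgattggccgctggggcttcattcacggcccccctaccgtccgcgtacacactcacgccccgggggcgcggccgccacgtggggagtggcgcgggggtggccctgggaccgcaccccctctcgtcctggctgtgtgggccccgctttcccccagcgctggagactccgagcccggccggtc

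TNFRSF14-AS1 (chr1:2549920-2557031) had 22, 20 and 33 counts in doxorubicin libraries and 0 in each DMSO library, at least 25.4-fold higher against the same floor. Its partner TNFRSF14, which encodes the immune receptor HVEM, had 903, 1027 and 987 counts in doxorubicin libraries and 24, 25 and 19 in DMSO libraries. TNFRSF14 was 43.3-fold higher (log2 fold change 5.44 ± 0.12 SE, adjusted p = 6.3e-15, edgeR). Of the member's exon bases, 13.5% lie in TNFRSF14 exons on the opposite strand. AL109976.1, a single-exon gene whose start is 146 bases from that of SLC4A11, had 73, 61 and 46 counts in doxorubicin libraries and 0, 4 and 1 in DMSO libraries. SLC4A11, a membrane transporter, was 3.91-fold higher, with 23.2 ± 1.84 CPM in doxorubicin and 5.92 ± 0.538 CPM in DMSO (SD, n = 3 each; adjusted p = 4.1e-10, edgeR).

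ITGA3, integrin alpha 3, starts 229 bases from PICART1 and shares no exon base with it. It changed far less than its partner, with 663 ± 57.5 CPM in doxorubicin and 473 ± 59.5 CPM in DMSO (SD, n = 3 each), a log2 fold change of 0.49 ± 0.09 SE (adjusted p = 4.0e-04, edgeR). In the remaining divergent pairs the partner was not called higher. AC005759.1 (chr19:18204730-18220480) starts 656 bases from RAB3A, a vesicle GTPase gene that was not called (log2 fold change 0.33, adjusted p = 0.22, edgeR). It also overlaps PDE4C, a cAMP phosphodiesterase gene with 1062 doxorubicin and 7 DMSO counts, a ratio of 154 (74.4 to 384), and 55.7% of its exon bases lie in exons of other genes. Against PDE4C the member itself had only 25, 37 and 20 counts in doxorubicin libraries and 4, 0 and 1 in DMSO libraries. SEPT4-AS1 (now SEPTIN4-AS1) starts 1932 bases from MTMR4, a phosphoinositide phosphatase gene that was lower (log2 fold change -1.29 ± 0.08 SE, adjusted p = 3.8e-10, edgeR). It overlaps SEPT4, a septin gene that was 13.1-fold higher, and 80.1% of its exon bases lie in exons of other genes. Of the 6 divergent partners, 4 were thus higher, 1 lower and 1 not called, with no strand to separate reads in the shared exons.

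**Figure D4:**
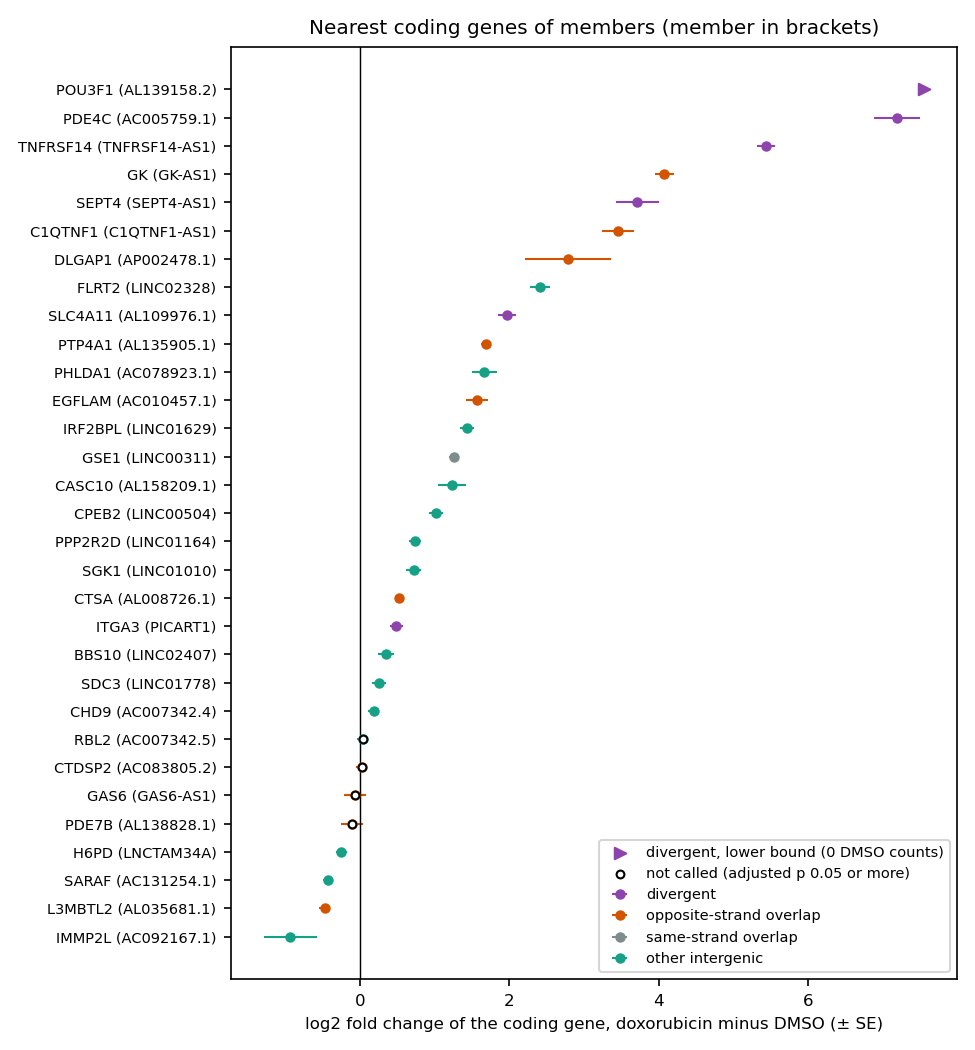
Log2 fold change (doxorubicin minus DMSO) of the nearest tested coding genes that are reported by name, with their approximate SE, coloured by the member's position class and with the member in brackets. POU3F1, at 0 DMSO counts, is drawn at its bound against 3 counts over the DMSO group. The 23 genes called higher that are drawn lie right of 0, open circles mark 4 that were not called, and the 4 called lower end with IMMP2L at -0.93.

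Among the 14 members classed as opposite-strand overlaps, 6 had a host gene that was higher. TNFRSF14-AS1, AC005759.1 and SEPT4-AS1, classed as divergent, also overlap a coding gene on the opposite strand that was higher. GK-AS1 had 22, 16 and 33 counts in doxorubicin libraries and 0, 0 and 1 in DMSO libraries. Its host GK, glycerol kinase, had 2928, 2540 and 2170 counts in doxorubicin libraries and 145, 178 and 138 in DMSO libraries (16.8-fold higher, adjusted p = 5.2e-11, edgeR). GK exons cover 11.4% of the exon bases of GK-AS1, and in doxorubicin GK held 7638 counts and GK-AS1 71. C1QTNF1-AS1 had 55, 43 and 24 counts in doxorubicin libraries and 2, 0 and 1 in DMSO libraries, with no shared exon base. Its host C1QTNF1, a secreted C1q-related protein gene, was higher by 3.46 on the log2 scale, with 10.8 ± 1.73 CPM in doxorubicin and 0.978 ± 0.234 CPM in DMSO (SD, n = 3 each; adjusted p = 5.6e-10, edgeR).

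AC010457.1 (chr5:38460925-38468339) lies at the end of EGFLAM, the gene of the matrix protein pikachurin, without a shared exon base. The member had 151, 126 and 133 counts in doxorubicin libraries and 10, 7 and 7 in DMSO libraries, and EGFLAM was 2.96-fold higher (adjusted p = 1.2e-07, edgeR). AL135905.1, within PTP4A1, and AP002478.1, within DLGAP1, also had hosts that were higher, by log2 fold changes of 1.69 and 2.78. The value for DLGAP1 rests on few counts, fewer than those of AP002478.1 itself. DLGAP1 had 15, 15 and 13 counts in doxorubicin libraries and 3, 0 and 3 in DMSO libraries, a ratio of 7.27 (3.08 to 20.9). PTP4A1 encodes a phosphatase and covers 28.3% of the member's exon bases, and DLGAP1, a postsynaptic scaffold gene, covers 2.06%. AL135905.1 had 58, 47 and 52 counts in doxorubicin libraries and 2, 4 and 1 in DMSO libraries, and AP002478.1 had 52, 38 and 48 in doxorubicin libraries and 4, 3 and 4 in DMSO libraries. AL008726.1 was the member most exposed to its host: 75.6% of its exon bases lie in exons of CTSA, cathepsin A. It had 45, 62 and 52 counts in doxorubicin libraries and 0, 2 and 0 in DMSO libraries, beside 19756 doxorubicin and 13980 DMSO counts for CTSA. CTSA was higher by only 0.52 on the log2 scale (adjusted p = 7.2e-07, edgeR), while the member's ratio was 80.6 (22.0 to 672). NEURL2, the gene with the closest start, was 34.9-fold higher (adjusted p = 1.7e-08, edgeR), a gene singled out after its value was seen. NEURL2 had 91, 114 and 84 counts in doxorubicin libraries but only 2, 0 and 6 in DMSO libraries, a ratio of 36.6 (18.4 to 85.7).

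In other opposite-strand overlaps the host gene was not called or was lower. GAS6-AS1 (chr13:113815630-113845744) was the second most abundant member, with 322, 324 and 283 counts in doxorubicin libraries and 15, 5 and 10 in DMSO libraries, a ratio of 31.4 (21.9 to 46.8). GAS6, which encodes a ligand of the TAM receptor kinases, had 1628, 2116 and 1995 counts in doxorubicin libraries and 1568, 2134 and 2387 in DMSO libraries, and these overlap. With a log2 fold change of -0.07 ± 0.15 SE, GAS6 was not called (adjusted p = 0.73, edgeR). Its exons cover 5.87% of the exon bases of GAS6-AS1. AL035681.1 (now L3MBTL2-AS1) had 158, 198 and 160 counts in doxorubicin libraries and 3, 1 and 3 in DMSO libraries, a ratio of 74.8 (36.0 to 187). Its host L3MBTL2, a Polycomb-group gene whose exons cover 37.5% of the member's exon bases, was lower, with 46.3 ± 2.78 CPM in doxorubicin and 64.2 ± 4.35 CPM in DMSO (SD, n = 3 each; adjusted p = 4.0e-05, edgeR). CTDSP2 and PDE7B, hosts of AC083805.2 and AL138828.1 (now PDE7B-AS1), were not called. AC083805.2 had 24, 45 and 28 counts in doxorubicin libraries and 1 in each DMSO library, and AC097478.1 had 27, 26 and 20 in doxorubicin libraries and 0, 0 and 1 in DMSO libraries. SLCO4A1 and GNA15, hosts of AL357033.4 (now SLCO4A1-AS2) and AC005264.1, were below the filter, with 12 and 22 doxorubicin counts in all. AL357033.4 itself had 70, 57 and 50 counts in doxorubicin libraries and 0, 3 and 4 in DMSO libraries.

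On chromosome 6, CASC15 and NBAT1 lie in a known neuroblastoma risk locus, on opposite strands and overlapping each other. CASC15 had 41, 29 and 28 counts in doxorubicin libraries and 3, 3 and 2 in DMSO libraries, while NBAT1, reported to work with the Polycomb enzyme EZH2, had 43, 28 and 21 and 0, 1 and 0. Both were highest in doxorubicin replicate 1. They share 227 exon bases, and their nearest coding gene by span, PRL, had 2 counts over all libraries. SOX4, a transcription factor gene singled out after its value was seen, has the start closest to that of CASC15 and was 3.17-fold higher (33.2 ± 4.97 CPM in doxorubicin and 10.5 ± 0.898 CPM in DMSO, SD, n = 3 each; adjusted p = 3.3e-09, edgeR).

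Intergenic members included the most abundant gene of the set. LINC02407 (now LNCOG, chr12:76259839-76305131) had 576, 583 and 565 counts in doxorubicin libraries, against 38, 61 and 56 in DMSO libraries. It was also highest per length, at 26.4 CPM per kilobase in doxorubicin and well above the median of 1.33, and its ratio of 11.3 (9.57 to 13.4) was among the smallest. Its nearest coding gene BBS10, a chaperonin-like gene, was higher by 0.34 on the log2 scale (adjusted p = 0.0090, edgeR), a call lost without DMSO replicate 3 (0.23). AC078923.1 lies 275824 bases from LINC02407 on the other strand. It had 20, 25 and 16 counts in doxorubicin libraries and 0 in each DMSO library, at least 20.6-fold higher against 3 counts over the DMSO group. PHLDA1, a pleckstrin-homology-like gene next to AC078923.1, was 3.17-fold higher (adjusted p = 1.0e-04, edgeR).

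IRF2BPL, 58741 bases from LINC01629, had 2344, 1955 and 1878 counts in doxorubicin libraries and 761, 850 and 715 in DMSO libraries (2.70-fold higher, adjusted p = 6.9e-09, edgeR). FLRT2, which encodes a cell adhesion protein and lies 280284 bases from LINC02328, was 5.30-fold higher, with 23.9 ± 2.14 CPM in doxorubicin and 4.51 ± 0.865 CPM in DMSO (SD, n = 3 each; adjusted p = 2.3e-10, edgeR). The member LINC02328 itself was weak, with 21, 22 and 25 counts in doxorubicin libraries and 2, 3 and 1 in DMSO libraries. The kinase gene SGK1 (log2 fold change 0.72), the translation regulator gene CPEB2 (1.01), the phosphatase subunit gene PPP2R2D (0.74) and CASC10 (1.24) were also higher; they neighbour LINC01010, LINC00504, LINC01164 and AL158209.1 (now LINC02643). AL158209.1 had 76, 74 and 60 counts in doxorubicin libraries and 2, 1 and 1 in DMSO libraries. LINC01164 was the least even member, with 58, 30 and 21 counts in doxorubicin libraries and 0, 1 and 0 in DMSO libraries.

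Other intergenic members had a neighbour that was lower, not called or higher by only a small step. AC092167.1 (chr7:110432239-110534754) had 41, 38 and 54 counts in doxorubicin libraries and 0 in each DMSO library. It was at least 45.0-fold higher against 3 counts over the DMSO group. IMMP2L, a mitochondrial peptidase subunit gene 128297 bases away, was lower, with 0.749 ± 0.208 CPM in doxorubicin and 1.44 ± 0.521 CPM in DMSO (SD, n = 3 each; adjusted p = 0.028, edgeR). That call was lost without DMSO replicate 2 (log2 fold change -0.60), doxorubicin replicate 1 (-0.73) or doxorubicin replicate 3 (-1.01), and with DESeq2 (-0.95). H6PD, near LNCTAM34A, and SARAF, near AC131254.1, were lower by smaller steps (log2 fold changes of -0.25 and -0.43). AC131254.1 itself had 49, 69 and 33 counts in doxorubicin libraries and 2, 3 and 0 in DMSO libraries. AC007342.5 and AC007342.4 on chromosome 16 lie on the same strand 2199 bases apart, and both were highest in doxorubicin replicate 1. AC007342.5 had 48, 23 and 29 counts in doxorubicin libraries and 0 in each DMSO library, and AC007342.4 had 38, 16 and 18 in doxorubicin libraries and 1, 0 and 0 in DMSO libraries. Of their neighbours, RBL2, which encodes the pocket protein p130, was not called (log2 fold change 0.04, adjusted p = 0.69, edgeR), and CHD9, a chromatin remodeller gene, was higher by 0.19, a call lost without DMSO replicate 2 (0.15), DMSO replicate 3 (0.15), doxorubicin replicate 1 (0.16) or doxorubicin replicate 2 (0.17), and with DESeq2 (0.18) or no filter (0.16). LINC00311 is not intergenic and lies inside the span of GSE1 on the same strand. It had 22, 31 and 23 counts in doxorubicin libraries and 0, 3 and 4 in DMSO libraries. GSE1 was 2.40-fold higher (adjusted p = 9.8e-11, edgeR), and the member shares no exon base with it.

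LINC01778 had 37, 24 and 36 counts in doxorubicin libraries and 2, 0 and 4 in DMSO libraries, and SDC3, syndecan 3, 35036 bases away, was higher by 0.25 on the log2 scale (adjusted p = 0.028, edgeR). That call was lost without DMSO replicate 1 (0.23), DMSO replicate 2 (0.22), doxorubicin replicate 1 (0.23) or doxorubicin replicate 3 (0.25), and with DESeq2 (0.25) or no filter (0.22). LAPTM5, a lysosomal membrane protein gene with the closest start, was 20.6-fold higher (adjusted p = 4.0e-09, edgeR), again singled out after its value was seen. AL133325.3, 8076 bases downstream of NKX2-2 on the same strand, had 23, 19 and 24 counts in doxorubicin libraries and 0 in each DMSO library. It was at least 22.3-fold higher against 3 counts over the DMSO group. NKX2-2, a homeobox gene, had 0 counts in all 6 libraries. LINC00504, with 24, 19 and 19 counts in doxorubicin libraries and 1, 0 and 0 in DMSO libraries, and AL138828.1, with 31, 22 and 18 and 0 in each DMSO library, were among the weakest members.

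For 12 members the coding gene with the closest start was not the nearest by span. Of these 12 genes, 5 were higher (NEURL2, LAPTM5, SOX4, TGIF1 and LRRN3) and 1 was lower (MTMR4). Another 4 were not called (LIFR, RAB3A, RBL2 and MTFR2) and 2 were below the filter (GPRIN3 and S1PR4). Among all tested coding genes 33.6% were higher and 35.3% lower. With so few genes the counts are a description, and the difference was not tested. TGIF1, the closest start to AP002478.1, had a log2 fold change of 1.18, LIFR, the closest to AC010457.1, one of -0.08, and MTFR2, the closest to AL138828.1, one of 0.17. LRRN3, the closest to AC092167.1, had one of 0.95 (adjusted p = 0.045, edgeR), a call lost without DMSO replicate 1 (0.88), DMSO replicate 2 (0.91), DMSO replicate 3 (1.05), doxorubicin replicate 1 (0.95) or doxorubicin replicate 3 (0.72), and with DESeq2 (0.96), no filter (0.92) or the replicate block (0.94).

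A list of 40 p53 target genes was set beside the members. All 40 passed the filter and were called higher, against 33.6% of coding genes. The list was chosen with earlier results of these data known, so that count is a description and no support. None was the nearest coding gene of a member (0 of 38 distinct genes), and since the list makes up 0.202% of 19850 coding genes, that count says nothing about the members.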

How the data were processed

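Raw counts per gene and library were deposited by the authors in a table shaped like featureCounts output, per the file headers. Named in the submitters' processing notes are STAR, SAMtools, Subread, featureCounts and GRCh38 (hg38); versions, settings, read or pair counting and the handling of overlapping genes are not given in the sources used here. Per the labels' protocols, poly(A) libraries were prepared with Illumina's TruSeq RNA kit and carry no strand. Types and names came from GENCODE 29 (GRCh38); 58179 of 58299 IDs matched, and spans of all 39 members were identical. No columns of other samples were present (0). Coordinates are 1-based spans from first to last exon.

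edgeR 4.0.16 in R 4.3.3 was run on all genes: filterByExpr with defaults (minimum count 10, minimum total 15), TMM, robust dispersion, and quasi-likelihood tests (doxorubicin over DMSO, two-sided), with p-values adjusted by Benjamini-Hochberg across the 15358 genes kept. Each SE is approximate and was taken from the F statistic. The procedure was tested on simulated data with known changes. Ratios of members use summed counts over TMM-scaled library sizes, with exact 95% intervals that cover counting error only. A fold given as at least, for genes with 0 DMSO counts, is against 3 counts over the DMSO group. It is not the lower limit of the exact interval, which was 152 for POU3F1 and 36.1 for AC092167.1. That limit was 20.1 for TNFRSF14-AS1, 17.6 for AL133325.3 and 16.3 for AC078923.1. Pairs of replicates differed by more than sampling noise (chi-square over its degrees of freedom 2.82 to 9.39), and each library counted as 1 replicate. SciPy 1.17.1 and matplotlib 3.10.9 were used.

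The nearest coding gene has the smallest distance between spans on either strand, ties going to the closer start. Members, lists and tests were chosen with earlier results of these data known. Members could be named by count rank, zero DMSO counts, class, proximity to p53 targets, non-clone symbol or closeness to a threshold, and coding genes as their neighbours; AL135905.1, AC131254.1, AP002478.1, AC083805.2, AC097478.1 and AC007342.4, their neighbours, and the coding genes named for their closest start, fall outside that and were named after their values were seen. Values of a few single genes are not reported here. Alternatives were DESeq2, RLE scaling, library totals, no filter, a replicate block, single libraries left out, other thresholds and other distances.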

Additional observations from a re-analysis of the deposited data

How the results depend on the processing

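Counts of nearest coding genes changed little with the fit: 24 were higher as reported, 22 with DESeq2 1.42.0 or no filter, 24 with RLE scaling or library totals, and 22 to 23 without single libraries, where 3 to 4 were lower. By start-to-start distance 22 were higher and 4 lower, and without members that share exon bases 17 were higher and 2 lower. Same-numbered libraries did not deviate together (r of 0.05, -0.02 and 0.03, against -0.07 to 0.06 for different numbers). Whether they were handled as pairs cannot be told from these values. With the replicate number as a block, 24 nearest coding genes were higher and 4 lower, with 5003 genes higher and 4917 lower over the table.

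The member count depends on its thresholds. It was 67 at a minimum of 30 counts, 19 at 120, 62 at a ratio of 5, 31 at a ratio of 20, 39 on TMM-scaled counts and 35 to 43 without single libraries. With no filter, 662 lincRNA and antisense genes were higher, against 393. Divergent members were 4 at 1000 bases and 8 at 5000 bases.

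Of 40 coding genes named, 31 kept direction and call in every alternative. GAS6, RBL2, CTDSP2 and LIFR, which were not called, changed sign. GAS6 lay at 0.077 without DMSO replicate 3 and 0.02 without doxorubicin replicate 1, in a range of -0.21 to 0.077 without single libraries. RBL2 lay at -0.0052 without DMSO replicate 2 and -0.0013 without doxorubicin replicate 1 (range -0.0052 to 0.093). CTDSP2 lay at -0.0089 with no filter, -0.034 without DMSO replicate 2, -0.0030 without DMSO replicate 3 and -0.03 without doxorubicin replicate 1 (range -0.034 to 0.077). LIFR lay at 0.0043 without DMSO replicate 1 and 0.067 without doxorubicin replicate 1 (range -0.17 to 0.067). BBS10, IMMP2L, SDC3, CHD9 and LRRN3 lost their calls in 1 to 8 alternatives, and the cause was not tested. Depth limits members near 60 counts, whose ratios have wide counting intervals.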
